A study of Rattus norvegicus with 6 samples.

Results

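The genes described here are 7 chemokines that recruit monocytes, neutrophils and T cells, namely Ccl2, Ccl3, Ccl4, Ccl5, Cxcl1, Cxcl2 and Cxcl10. They were picked by gene identifier, with no threshold on a measured value, though earlier results of these data were known. All 7 are among the 33884 genes in the count table. Cardiac macrophages positive for the leukocyte protein CD45 and the rat macrophage antigen HIS36 were sorted from infarcted left ventricles 72 h after myocardial infarction (MI), and their RNA was sequenced as 3 WT and 3 Dusp6-deficient libraries. All rats were Sprague Dawley males of 8 to 10 weeks with a permanent ligation of the left anterior descending coronary artery, and no library from an unoperated heart was analysed here. Dusp6-deficient (Dusp6-/-) rats carry a CRISPR-made insertion of 1 adenine in the first exon of Dusp6, which gives a premature stop codon. The mutation is in the germline, so all cell types of these hearts carry it. DUSP6 is a phosphatase that acts on the kinase ERK.

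Chemokines are small secreted proteins that guide leukocytes along concentration gradients by binding receptors on their surface. After MI, chemokines from resident and infiltrating cells draw in neutrophils first and monocytes later, and macrophages are themselves a major source of them. The 7 genes fall into CC chemokines (the Ccl genes) and CXC chemokines (the Cxcl genes), named for the spacing of conserved cysteines. Ccl2 attracts monocytes through the receptor Ccr2. Ccl3, Ccl4 and Ccl5 attract monocytes and T cells. Cxcl1 and Cxcl2 attract neutrophils through Cxcr2, while Cxcl10 is an interferon-induced ligand of Cxcr3 on T cells and NK cells. In rats, Ccl3 and Ccl4 are neighbours on chromosome 10, with 0 protein-coding genes between them in the RefSeq annotation of GRCr8. Cxcl1 and Cxcl2 are likewise neighbours on chromosome 14. Transcription of many chemokine genes is driven by NF-κB, which binds κB motifs, and by AP-1. Interferons act through the interferon-stimulated response element (ISRE).

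Promoter sequences were at hand for 3 of the 7 genes, Cxcl1, Cxcl2 and Cxcl10. They are shown because the neighbouring genes Cxcl1 and Cxcl2 can be set beside each other and beside an interferon-induced chemokine. Each sequence is from RefSeq on GRCr8 and runs from 250 bases before the gene's start to 50 bases after it, 5′ to 3′ on the gene's strand. Cxcl1 is at chr14:17479272-17479571 (minus strand), Cxcl2 at chr14:17467206-17467505 (minus strand) and Cxcl10 at chr14:15988816-15989115 (plus strand). Capitals mark matches, on either strand, to a κB motif (GGG, any 5 bases, CC), an AP-1 motif (TGANTCA) or the core of an ISRE (GAAA, any 2 bases, GAAA).
Cxcl1: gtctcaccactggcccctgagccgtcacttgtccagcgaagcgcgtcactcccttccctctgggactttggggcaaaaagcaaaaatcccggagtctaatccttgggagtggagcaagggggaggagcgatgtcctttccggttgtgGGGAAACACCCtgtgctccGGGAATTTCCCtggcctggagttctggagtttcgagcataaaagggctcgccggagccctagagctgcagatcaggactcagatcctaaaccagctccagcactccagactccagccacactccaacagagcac
Cxcl2: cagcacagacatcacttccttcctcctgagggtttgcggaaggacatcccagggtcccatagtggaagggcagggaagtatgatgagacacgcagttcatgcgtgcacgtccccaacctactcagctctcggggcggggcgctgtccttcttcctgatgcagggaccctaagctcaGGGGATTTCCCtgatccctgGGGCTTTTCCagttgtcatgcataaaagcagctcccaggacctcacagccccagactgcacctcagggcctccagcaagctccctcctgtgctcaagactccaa
Cxcl10: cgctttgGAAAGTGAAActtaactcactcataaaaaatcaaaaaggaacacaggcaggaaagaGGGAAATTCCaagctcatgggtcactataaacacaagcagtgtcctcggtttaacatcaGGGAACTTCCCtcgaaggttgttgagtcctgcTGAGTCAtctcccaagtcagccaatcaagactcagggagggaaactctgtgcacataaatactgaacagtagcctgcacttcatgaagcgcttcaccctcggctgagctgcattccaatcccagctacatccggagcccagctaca
All 3 promoters held κB matches, and so did 47.3% of the 33469 rat promoters of the same length. In Cxcl1 the matches began 103 and 84 bases upstream of the start, and in Cxcl2 they began 74 and 54 bases upstream, counting overlapping matches at one place once. In Cxcl10 the κB matches began 187 and 128 bases upstream. Cxcl10 was alone among the 3 in holding an AP-1 match (96 bases upstream), a motif found in 7.33% of all promoters. It was also alone in holding an ISRE core (243 bases upstream), found in 3.92% of all promoters. A match is a description of these letters and not a bound site.

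The libraries held between 12089585 and 17274938 gene counts. Levels are given as CPM, counts divided by a library total that the TMM method has corrected for differences in composition. On the first principal component of log2 CPM, which held 49.2% of the variance, the WT libraries scored -49.7 to -35.9 and Dusp6-deficient replicates 2 and 3 scored 65.0 and 53.5. Dusp6-deficient replicate 1 scored 4.48, between the genotypes, so the fold change of each gene and the counts over the 7 genes are also given without it. No library repeated another, since libraries of one genotype differed by a chi-square of 27.6 to 154 per gene, where a repeat would give about 1. Nothing in the labels says that the libraries of a genotype came from separate rats, so p-values measure the spread between these libraries. The identity of the sorted cells and the level of Dusp6 were not analysed here, because no table used here pairs the other identifiers with gene names.

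Of the 7 chemokines, Ccl2 rose and Ccl5 fell in Dusp6-deficient macrophages, and the other 5 did not pass the test. A gene was called when its Benjamini-Hochberg adjusted p in edgeR's quasi-likelihood test was under 0.05 and its log2 fold change was above 1 in either direction. Over all 12756 genes tested, 3.47% were called up and 2.16% were called down. The change of the 7 chemokines had a median log2 fold change of 0.58, against 0.02 over all genes tested, and 5 of the 7 had a log2 fold change above 0, as did 51.4% of all genes. At an unadjusted p under 0.05, 5 of the 7 differed, against 30.6% of all genes tested. For 5 of the 7, the CPM of the WT and Dusp6-deficient libraries did not overlap. Higher without overlap in Dusp6-deficient libraries were 4 chemokines (17.8% of all genes), and lower without overlap was 1 (16.3% of all genes). The median log2 fold change of the 7 without Dusp6-deficient replicate 1 was 0.42, against -0.05 over all genes, and 5 were above 0 (47.9% of all genes). Again 4 chemokines were then higher without overlap (29.3% of all genes) and 1 was lower (29.7% of all genes).

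**Figure D1:**
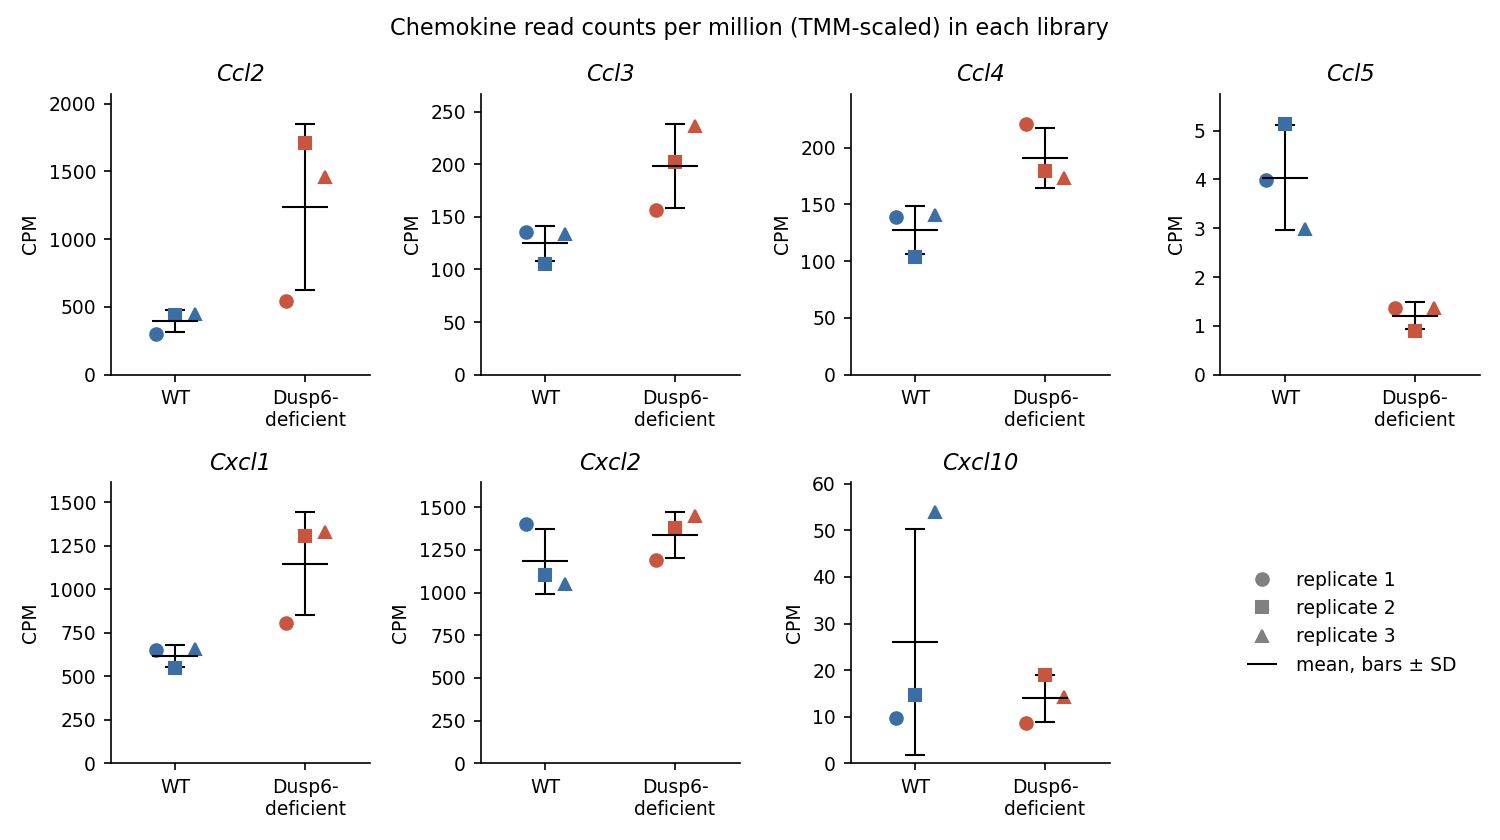
CPM (TMM-scaled, linear axes from 0) of each chemokine in the 3 WT and 3 Dusp6-deficient libraries, with marker shapes for replicates 1 to 3, horizontal lines for means and bars for ± SD. The genotypes are apart for Ccl2, Ccl3, Ccl4, Ccl5 and Cxcl1, and overlap for Cxcl2 and Cxcl10, where WT replicate 3 stands alone at 53.9 CPM.

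Ccl2 (ENSRNOG00000007159), the monocyte attractant, had the largest increase of the 7. It had 299, 437 and 450 CPM in WT replicates 1, 2 and 3, and 541, 1709 and 1460 CPM in the Dusp6-deficient replicates. The genotypes did not overlap, but Dusp6-deficient replicate 1 lay close above the highest WT library while the other two lay far above it. WT libraries averaged 395 ± 83.4 CPM (SD, n = 3) and Dusp6-deficient libraries 1237 ± 615 CPM (SD, n = 3). Ccl2 rose 3.13-fold, a log2 fold change of 1.65 with a standard error of 0.40 (adjusted p = 0.0414, edgeR's quasi-likelihood test). Its 95% confidence interval ran from a 1.67-fold to a 5.85-fold increase, and DESeq2 gave an adjusted p of 0.000606. At percentile 98.4 of log2 fold changes, Ccl2 stood near the upper end of all genes tested. Without Dusp6-deficient replicate 1, the log2 fold change was 1.95 (adjusted p = 0.00341, edgeR). Without any one of the other 5 libraries, it ran from 1.32 to 1.72 and the call was lost, with edgeR adjusted p-values of 0.0830 to 0.160. The call was also lost on library totals without TMM scaling, an alternative chosen after seeing the data, with a log2 fold change of 1.37 (adjusted p = 0.0553, edgeR).

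Ccl3 (ENSRNOG00000011205) and Ccl4 (ENSRNOG00000011406) encode the macrophage inflammatory proteins MIP-1α and MIP-1β, which are related in sequence. Ccl3 had 136, 105 and 133 CPM in the WT libraries, and 156, 202 and 237 CPM in the Dusp6-deficient libraries. Ccl4 had 139, 103 and 141 CPM in the WT libraries, and 221, 179 and 173 CPM in the Dusp6-deficient libraries. For both genes every Dusp6-deficient library lay above every WT library, by a narrow margin. Dusp6-deficient replicate 1 was the lowest of its genotype for Ccl3 and the highest for Ccl4. The log2 fold change of Ccl3 was 0.67 (standard error 0.22, adjusted p = 0.0842, edgeR), which missed both thresholds. That of Ccl4 was 0.58 (standard error 0.21, adjusted p = 0.101, edgeR), which missed them too. The intervals of the fold ran from 1.13 to 2.23 for Ccl3 and from 1.09 to 2.07 for Ccl4. Without Dusp6-deficient replicate 1, Ccl3 had a log2 fold change of 0.77 (adjusted p = 0.0215, edgeR), still under the fold threshold, and Ccl4 had one of 0.42 (adjusted p = 0.124, edgeR). On library totals without TMM scaling, the highest WT value of Ccl4 (160 CPM) lay above Dusp6-deficient replicates 2 and 3 (156 and 153 CPM), so its separation depended on the scaling.

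Ccl5 (ENSRNOG00000010906), known as RANTES and made by T cells, NK cells and activated macrophages, was the only one of the 7 called down. It was counted 67, 89 and 41 times in the WT libraries and 24, 11 and 17 times in the Dusp6-deficient libraries. These are few counts, and counting error alone spans 5.49 to 19.7 around the lowest count of 11 and 29.4 to 55.6 around the lowest WT count of 41 (exact Poisson 95% intervals). The levels were 3.98, 5.14 and 2.99 CPM in WT, and 1.37, 0.888 and 1.36 CPM in Dusp6-deficient macrophages. No Dusp6-deficient library reached the level of any WT library. WT libraries averaged 4.04 ± 1.08 CPM (SD, n = 3) and Dusp6-deficient libraries 1.21 ± 0.277 CPM (SD, n = 3). Ccl5 was 3.32-fold lower, a log2 fold change of -1.73 with a standard error of 0.40 (adjusted p = 0.0373, edgeR's quasi-likelihood test). DESeq2 gave an adjusted p of 0.00519. At percentile 2.08 of log2 fold changes, Ccl5 stood near the lower end of all genes tested. Without Dusp6-deficient replicate 1 the log2 fold change was -1.88 (adjusted p = 0.0221, edgeR). Without any one of the other 5 libraries it ran from -1.93 to -1.52, and the call was lost with edgeR adjusted p-values of 0.0609 to 0.130. In bulk libraries of sorted cells, fewer cells that express a gene and less RNA per cell cannot be told apart. Markers of T cells and NK cells were not analysed here.

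Cxcl1 (ENSRNOG00000002802) and Cxcl2 are the neutrophil attractants known in rats as CINC-1 and MIP-2. Cxcl1 had 652, 545 and 658 CPM in the WT libraries, and 805, 1306 and 1330 CPM in the Dusp6-deficient libraries. Again the genotypes did not overlap, and Dusp6-deficient replicate 1 was the library nearest to WT. WT libraries averaged 618 ± 63.6 CPM (SD, n = 3) and Dusp6-deficient libraries 1147 ± 296 CPM (SD, n = 3). The log2 fold change was 0.89 with a standard error of 0.24 (adjusted p = 0.0536, edgeR), a 1.86-fold difference that narrowly missed both thresholds. The interval of the fold ran from 1.27 to 2.71. DESeq2 put the log2 fold change at 0.86 (adjusted p = 0.0111), which missed the fold threshold alone. Without Dusp6-deficient replicate 1, Cxcl1 was called up with a log2 fold change of 1.04 (adjusted p = 0.00625, edgeR).

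Cxcl2 (ENSRNOG00000002792), next to Cxcl1 in the genome, did not differ beyond the spread between its libraries. It had 1399, 1100 and 1049 CPM in the WT libraries, and 1188, 1376 and 1448 CPM in the Dusp6-deficient libraries. WT replicate 1 lay above Dusp6-deficient replicates 1 and 2, so the genotypes overlapped. WT libraries averaged 1183 ± 189 CPM (SD, n = 3) and Dusp6-deficient libraries 1337 ± 134 CPM (SD, n = 3). The log2 fold change was 0.18 with a standard error of 0.20 (adjusted p = 0.581, edgeR). The interval ran from -0.28 to 0.64 on the log2 scale, so a fold of 0.821 to 1.56 remained possible. The log2 fold change without Dusp6-deficient replicate 1 was 0.21 (adjusted p = 0.419, edgeR). The direction depended on the scaling, since without TMM scaling the means were 1279 CPM in WT and 1228 CPM in Dusp6-deficient macrophages.

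Cxcl10 (ENSRNOG00000022256), the interferon-induced attractant of T cells, was decided by 1 library. It was counted 162, 252 and 740 times in the WT libraries and 152, 234 and 177 times in the Dusp6-deficient libraries. The levels were 9.62, 14.6 and 53.9 CPM in WT, and 8.71, 18.9 and 14.2 CPM in Dusp6-deficient macrophages. WT replicate 3 stood above all other libraries, and WT replicates 1 and 2 lay within the range of the Dusp6-deficient libraries. WT libraries averaged 26.0 ± 24.3 CPM (SD, n = 3) and Dusp6-deficient libraries 13.9 ± 5.10 CPM (SD, n = 3). The log2 fold change was -0.90 with a standard error of 0.60 (adjusted p = 0.332, edgeR). Without WT replicate 3 it was 0.16 (adjusted p = 0.823, edgeR), and without Dusp6-deficient replicate 1 it was -0.70 (adjusted p = 0.474, edgeR). The spread of Cxcl10 within the genotypes, an SD of 0.99 on the log2 CPM scale, was at percentile 95.2 of all genes tested, and that of Cxcl2, 0.19, was at percentile 15.1.

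The 2 calls are to be read against how many genes each comparison called. DESeq2 called Ccl2 up and Ccl5 down as well, among 5.02% of all genes called up and 5.13% called down. Without Dusp6-deficient replicate 1, edgeR called Ccl2 and Cxcl1 up and Ccl5 down, and 8.27% and 7.39% of all genes were called up and down. In the other 5 fits with a library left out, 0 of the 7 chemokines were called and few genes were called at all. Without WT replicate 1, 0.0385% of genes were called up and 0.100% down, and without WT replicate 2, 0.00770% up and 0.0924% down. Without WT replicate 3, 0.516% were called up and 0.607% down. Without Dusp6-deficient replicate 2, 0.0151% were called up and 0.0452% down, and without Dusp6-deficient replicate 3, 0.0151% up and 0.0377% down. An unadjusted edgeR p under 0.05 was reached by 6 of the 7 chemokines without WT replicate 1 (20.8% of all genes), by 3 without WT replicate 2 (23.6%) and by 5 without WT replicate 3 (24.5%). It was reached by 5 without Dusp6-deficient replicate 2 (21.2%), by 4 without Dusp6-deficient replicate 3 (20.0%) and by 4 without Dusp6-deficient replicate 1 (42.8%). The 6 without WT replicate 1 included Cxcl10 (log2 fold change -1.34, unadjusted p = 0.0269, edgeR), for which WT replicate 3 stood above all other libraries. Without WT replicate 3, the log2 fold change of Cxcl10 was 0.16.

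**Figure D2:**
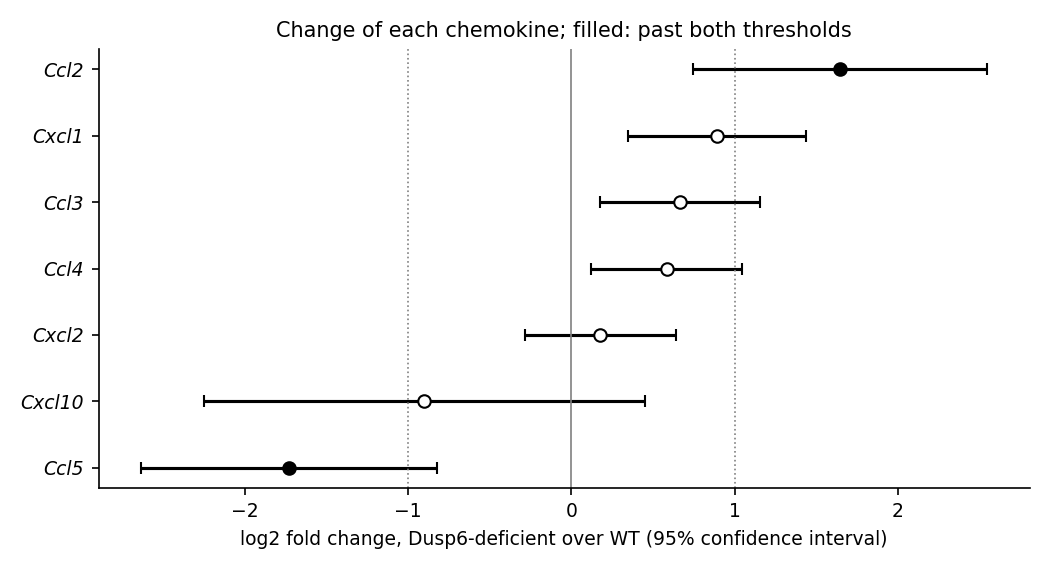
Log2 fold change of each chemokine in Dusp6-deficient over WT macrophages (points) with its 95% confidence interval (bars), from edgeR's quasi-likelihood test, with the fold threshold as dotted lines at -1 and 1. Filled points are Ccl2 at 1.65 and Ccl5 at -1.73, the genes past both thresholds, and the intervals of Cxcl2 and Cxcl10 include 0.

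**Figure D3:**
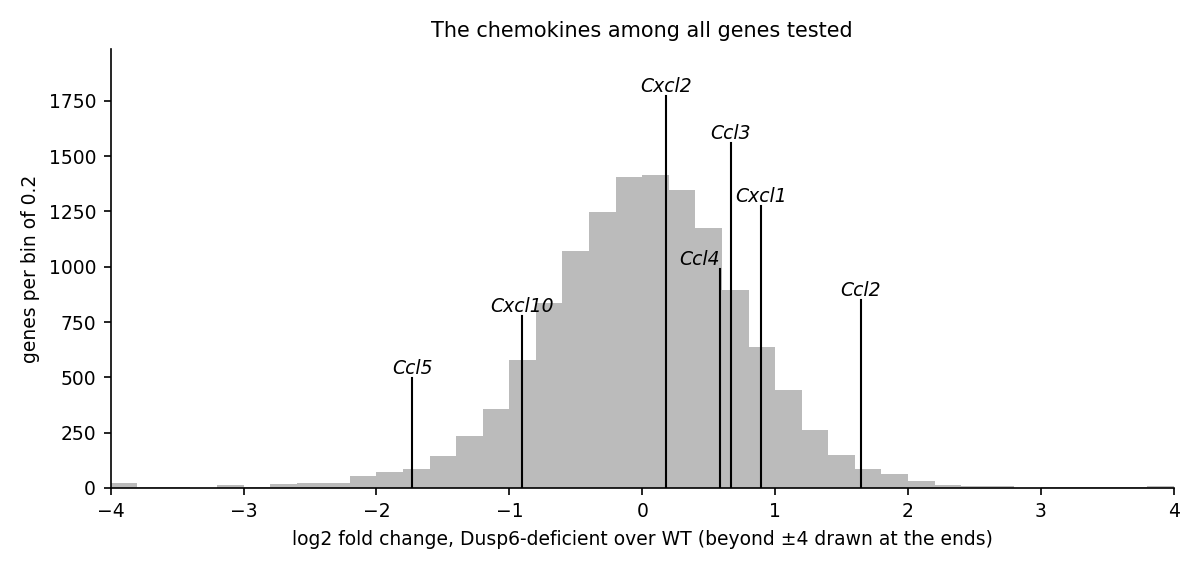
Log2 fold changes of all 12756 genes tested (grey histogram, genes per bin of 0.2 on the log2 scale), with the 7 chemokines as vertical lines whose heights carry no meaning. Ccl2 lies at percentile 98.4 and Ccl5 at percentile 2.08, and the other 5 lie between percentile 10.2 (Cxcl10) and percentile 89.3 (Cxcl1).

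**Figure D4:**
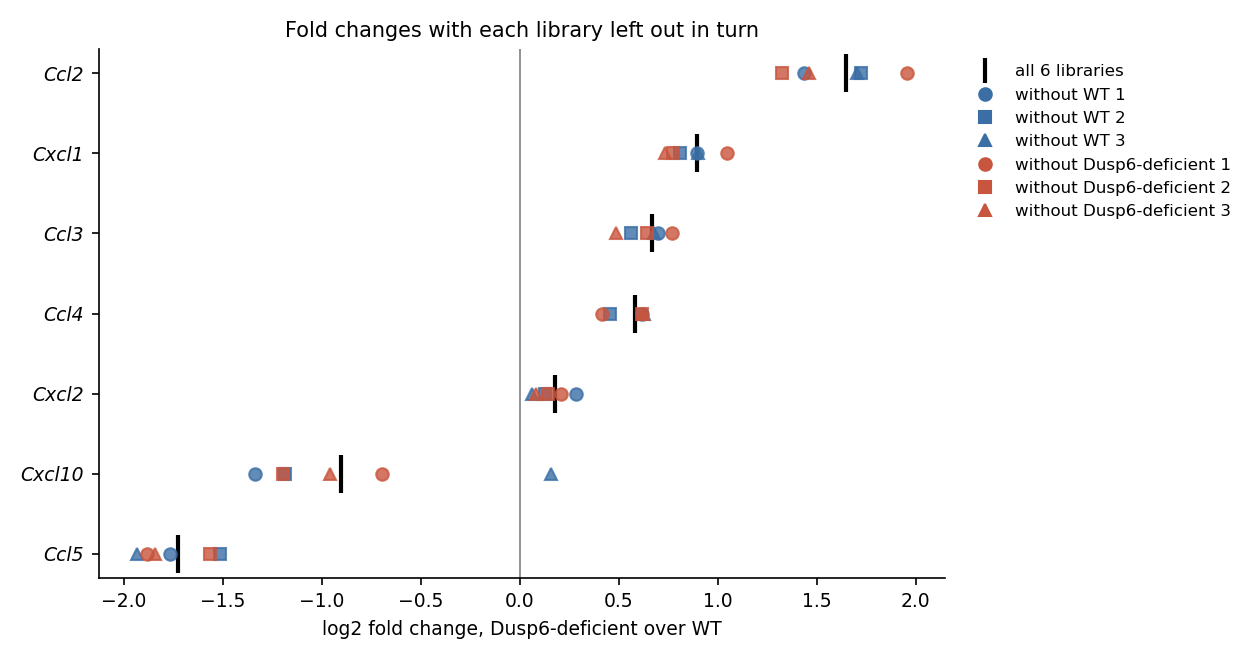
Log2 fold change of each chemokine with all 6 libraries (black bars) and with each library left out in turn (blue for a WT library, red for a Dusp6-deficient library, marker shapes for replicates 1 to 3). Cxcl10 moves from -0.90 to 0.16 without WT replicate 3, while Ccl2 runs from 1.32 to 1.95 and Ccl5 from -1.93 to -1.52.

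The chemokines were also set against each other within each library, since a ratio of the counts of a pair of genes does not depend on how libraries are scaled. All 21 pairs of the 7 genes were compared by exact permutation tests over the 6 libraries (two-sided). With 3 libraries against 3, the smallest p this test can give is 0.1, so no pair could pass 0.05. The ratios of 10 pairs did not overlap between the genotypes, as was the case for 31.5% of all pairs of tested genes counted in every library. With Dusp6-deficient replicate 1 left out, 16 of the 21 pairs did not overlap, against 55.3% of all pairs. Pairs that share a gene are not independent. The pairs of Ccl5 with Ccl2, Ccl3, Ccl4 and Cxcl1 had to be apart, since Ccl5 was lower and those genes were higher without overlap.

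Reads of Cxcl1 over those of Cxcl2 gave ratios of 0.466, 0.495 and 0.627 in the WT libraries, and 0.678, 0.949 and 0.919 in the Dusp6-deficient libraries. The ratio was higher in each Dusp6-deficient library than in any WT library, by 0.68 on the log2 scale (exact permutation p = 0.1, 0.21 when adjusted over the 21 pairs). Reads of Ccl2 over those of Ccl5 gave 75.2, 85.0 and 151 in the WT libraries, and 393, 1925 and 1073 in the Dusp6-deficient libraries. The genotypes were again apart, by 3.24 on the log2 scale (exact permutation p = 0.1, adjusted 0.21). Ccl3 over Ccl4 was near 1 in every WT library, at 0.979, 1.02 and 0.947. In Dusp6-deficient replicate 1 it was 0.707, below every WT library. In Dusp6-deficient replicates 2 and 3 it was 1.13 and 1.37, above every WT library. The mean difference was 0.07 on the log2 scale (exact permutation p = 0.8). With Dusp6-deficient replicate 1 left out, this ratio did not overlap between the genotypes, as was the case for 55.3% of all pairs.

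**Figure D5:**
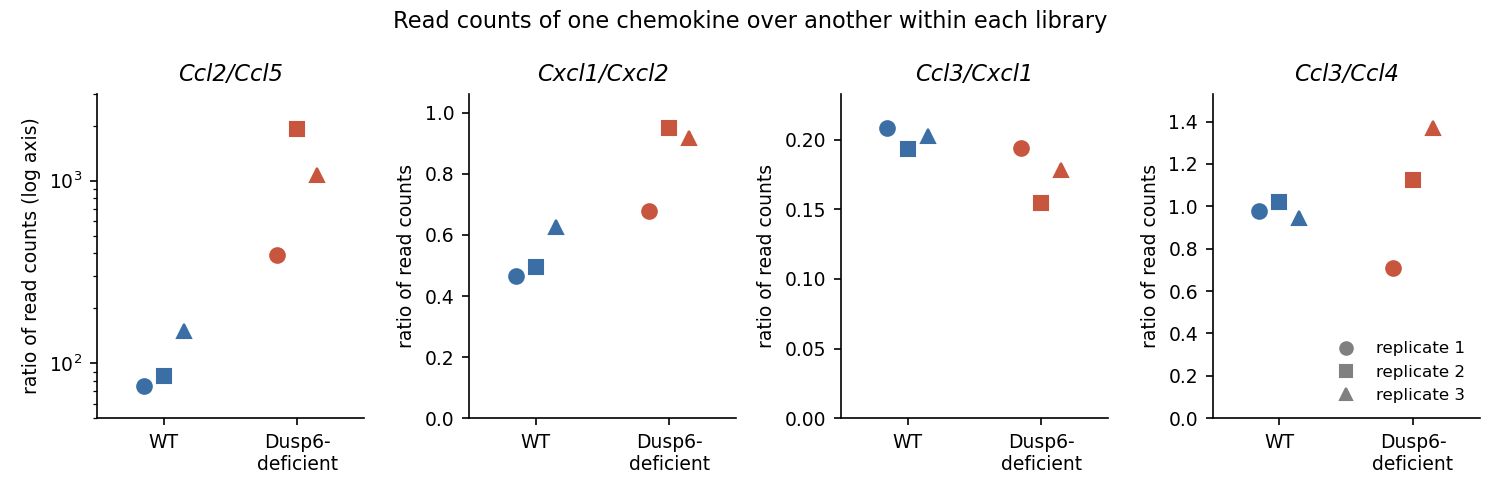
Read counts of the first gene over the second in each of the 6 libraries for 4 pairs of chemokines (log axis for Ccl2/Ccl5, linear axes from 0 for the rest), with marker shapes for replicates 1 to 3. The genotypes are apart for Ccl2/Ccl5 and Cxcl1/Cxcl2, and overlap for Ccl3/Cxcl1 and Ccl3/Ccl4.

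Profiles over the 6 libraries were compared by the root mean square difference of log2 CPM after centring each gene on its mean. Ccl3 and Cxcl1 were the most alike of the 21 pairs, with a difference of 0.14. Their ratio of reads was 0.208, 0.194 and 0.203 in the WT libraries, and 0.194, 0.154 and 0.178 in the Dusp6-deficient libraries. The 2 pairs of neighbouring genes were less alike than Ccl3 and Cxcl1, but more alike than most of the 21 pairs. Their difference was 0.29 for Ccl3 and Ccl4 and 0.39 for Cxcl1 and Cxcl2. Ccl2 and Ccl5 were the least alike, with a difference of 1.72. The measure includes the shift between the genotypes, so the gene that rose most and the gene that fell most were bound to lie far apart. Differences over all pairs of genes were not computed. Ccl3 and Cxcl1 were also the most alike (0.16) and Ccl2 and Ccl5 the least (1.88) without Dusp6-deficient replicate 1. The difference was then 0.19 for Ccl3 and Ccl4, closer to that of the most alike pair, and 0.43 for Cxcl1 and Cxcl2. The 7 chemokines together took 0.281%, 0.243% and 0.282% of all counts in the WT libraries, and 0.295%, 0.418% and 0.412% in the Dusp6-deficient libraries. WT shares averaged 0.269% ± 0.0224 (SD, n = 3) and Dusp6-deficient shares 0.375% ± 0.0694 (SD, n = 3), with no overlap (exact permutation p = 0.1, the smallest that 3 against 3 can give). The Dusp6-deficient mean was 0.415% without replicate 1. These shares are of totals without TMM scaling and mostly reflect the genes with most counts. In WT replicate 1, Cxcl2, Cxcl1 and Ccl2 had 23557, 10973 and 5040 of the 44417 counts, and Ccl5 had 67. On such totals, the log2 fold change was 1.37 for Ccl2, 0.64 for Cxcl1 and -0.060 for Cxcl2. It was 0.42 for Ccl3, 0.36 for Ccl4, -1.94 for Ccl5 and -1.20 for Cxcl10. The sum does not show the genes that were lower. Shares of other groups of genes were not computed.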

How the data were processed

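The deposited values are raw counts of reads per gene in 6 libraries. Per the labels and the methods of the study, the authors trimmed reads with Trim Galore, aligned them to rn6 with HISAT2 and counted them with featureCounts 1.5.0-p3. Strand setting, annotation release and multi-mapping were not given in the sources used here, so counts of related genes such as Cxcl1 and Cxcl2 are uncertain. Of the identifiers, 0 were paired with a symbol in the reference table. The 7 names came with the identifiers that define the group, and lists of other chemokines, receptors, NF-κB genes, interferon genes and cell markers were not analysed here.

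The test was edgeR 4.0.16 in R 4.3.3 (filterByExpr, TMM, quasi-likelihood test on genotype, Benjamini-Hochberg adjustment over all genes tested). The standard error is the log2 fold change divided by the root of F. Log2 CPM has a prior count of 2. DESeq2 1.42.0, the tool of the study, was an alternative, as were RLE and upper-quartile scaling, other filters, a replicate block and leaving out each library. The script was tested on simulated data. The genes named were the 7 members, which, like the lists, were chosen with earlier results of these data known. The pairs of ratios described were picked after their values were seen.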

Additional observations from a re-analysis of the deposited data

How the results depend on the processing

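The libraries are few, and the calls changed when single libraries were left out. Leaving out each library in turn, edgeR called 1 to 1083 genes up and 5 to 968 genes down, with the highest values without Dusp6-deficient replicate 1. Of the 7 chemokines, 0 to 2 were called up and 0 to 1 down. In the 5 fits with 0 called, 3 to 6 had an unadjusted p under 0.05 (edgeR), against 20.0% to 24.5% of all genes. Log2 fold changes ran from 1.32 to 1.95 for Ccl2, from -1.93 to -1.52 for Ccl5, from 0.73 to 1.04 for Cxcl1 and from -1.34 to 0.16 for Cxcl10.

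With the other settings, the calls of Ccl2 and Ccl5 held under DESeq2, RLE scaling, upper-quartile scaling, no filter on low counts and at least 10 counts in every library. Upper-quartile scaling moved the share of up-regulated genes among all called from 61.6% to 50.2%, and DESeq2 moved it to 49.4%. DESeq2 called 657 genes down against 275 with edgeR, no filter gave 422 genes down, and adjusted p alone gave 708 genes up against 442. On unscaled library totals, an alternative chosen after seeing the data, edgeR called 170 genes up and 412 down (29.2% up), and the median log2 fold change of all genes shifted to -0.21. Ccl2 then had 1.37 (adjusted p = 0.0553) and Cxcl2 -0.060, and 0 chemokines were called up, with 3 of 7 at an unadjusted p under 0.05, against 30.6% of all genes. DESeq2, with its own size factors, called 1 chemokine up. With the replicate block, edgeR called 298 genes up and 188 down. Ccl5 had -1.71 (adjusted p = 0.0774), so 0 chemokines were called down, with 5 of 7 at an unadjusted p under 0.05, against 26.3% of all genes. Same-numbered libraries of the genotypes did not pair, with correlations of their deviations of 0.106, -0.118 and -0.139. What caused these shifts was not tested.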
